A study of Mus musculus with 6 samples.

Results

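The cells described here were cells of the inflamed mouse spinal cord with RNA of monocytes and macrophages and the highest combined levels of Ms4a7, Apoe, Apoc2, Sash1 and Tmem37. They were chosen in 2 steps from the 4 libraries of mice with experimental autoimmune encephalomyelitis (EAE). A base gate first took cells with at least 10 UMIs (unique molecular identifiers, each standing for 1 captured transcript) of Ccr2, Ly6c2, Fn1, F10, Tgfbi, S100a4 and Plac8 together. The same gate allowed at most 2 UMIs of the microglial genes Tmem119, P2ry12, Siglech, Sparc and Olfml3 together. Each gated cell then received a score, the mean of ln(1 + UMIs per 10000) over the 5 scoring genes, and the top 15% of gated cells were kept. This left 766 high-score cells (named members in the plots) of 5106 gated cells, 7121 cells of the EAE libraries and 9078 cells in the whole series. The other 4340 gated cells served for comparison. The macrophage genes Adgre1 and Cd68, which the rule did not use, were higher in high-score cells than in these, as given below, so the label of macrophages was kept.

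The series profiled CD11b+ cells from the spinal cord of C57BL/6 mice aged 10 weeks by droplet sequencing of transcript 3′ ends. Live cells took up 10 µM DCFDA, which turns fluorescent when oxidised by reactive oxygen species (ROS), and its signal divided the sort into ROS+ and ROS- cells. The EAE ROS+ and EAE ROS- groups, with 2 libraries each, came from mice at disease onset (clinical score 1) after immunisation with a MOG peptide. The remaining group, healthy ROS- with 2 libraries, came from mice without disease. The dye, the CD11b sort, a collagenase digestion at 37 °C, myelin depletion and a live/dead stain were common to all groups. No transgene or reporter marked blood-derived cells, so their origin rests on RNA alone. Whether the 2 libraries of a group were from different animals is not stated in the labels, so differences between libraries may be technical. P-values of high-score cells against the other gated cells measure how alike that difference was in the 4 libraries. Those of ROS+ against ROS- high-score cells measure the spread between libraries of a group.

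During EAE, blood monocytes enter the spinal cord and many of them turn into macrophages, losing monocyte genes such as Ly6c2 and Plac8 while gaining genes for phagocytosis and lipid handling. Apolipoprotein E and its neighbour apolipoprotein C-II carry and help process lipids, which macrophages take up in quantity when they clear myelin. Ms4a7 belongs to a family of membrane proteins with several transmembrane segments and is widely used as a marker of blood-derived and border macrophages as opposed to microglia. Sash1 encodes a signalling scaffold protein and Tmem37 a transmembrane protein related to calcium channel gamma subunits.

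One library gave most of the high-score cells. EAE ROS+ replicate 1 held 519 of them (67.8%), EAE ROS+ replicate 2 held 119 (15.5%), EAE ROS- replicate 1 held 88 (11.5%) and EAE ROS- replicate 2 held 40 (5.22%). The 4 libraries contained 11909166 to 23407825 UMIs in 1530 to 2233 barcodes. In high-score cells the median was 9761, 7651, 7687 and 7831 UMIs per cell, in the library order just given, against 8142, 5336, 7169.5 and 6371 in the other gated cells. Score and depth were related. Across the 5106 gated cells the Spearman correlation of score and UMIs was 0.450, and it was 0.340, 0.324, 0.197 and 0.237 within the libraries. In total, 28 barcode sequences occurred in more than 1 EAE library, and 4 high-score cells carried one. Gene values below are counts per 1000000 UMIs (CPM) of all high-score cells of a library summed, always in the order EAE ROS+ replicates 1 and 2, then EAE ROS- replicates 1 and 2.

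The scoring genes chose the cells, so their levels are a description without a test. On mm10, Ms4a7 (ENSMUSG00000024672) lies at chr19:11321039-11336146, Sash1 (ENSMUSG00000015305) at chr10:8722217-8945608 and Tmem37 (ENSMUSG00000050777) at chr1:120067377-120074069. Apoe (ENSMUSG00000002985, chr7:19696244-19701310) and Apoc2 (ENSMUSG00000002992, chr7:19671579-19677941) are neighbours in 1 apolipoprotein cluster. Ms4a7 was at 493, 325, 512 and 581 CPM in high-score cells, against 119.6, 48.97, 89.7 and 53.2 CPM in the other gated cells. Apoe was at 23564, 20835, 24572 and 18083 CPM in high-score cells, against 11868, 5335, 6204 and 4045 CPM in the others. For Apoc2 the levels were 1527, 1592, 1437 and 1479 CPM in high-score cells, against 787, 478, 340.0 and 342 CPM in the others. For all 5 scoring genes, which chose the cells, the library values of the 2 sets of cells did not overlap. EAE ROS+ replicate 1 was the highest of the other gated cells in each. Sash1 was at 135, 147, 135 and 153 CPM in high-score cells, against 65.2, 43.1, 34.7 and 35.2 CPM in the others, and Tmem37 at 130.4, 166, 181 and 162 CPM in high-score cells, against 27.8, 19.2, 14.05 and 15.4 CPM in the others. The ratio of means was 8.36 for Tmem37 and 6.14 for Ms4a7, and near 3 for the remaining genes: 3.19 for Sash1, 3.17 for Apoe and 3.10 for Apoc2.

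**Figure D1:**
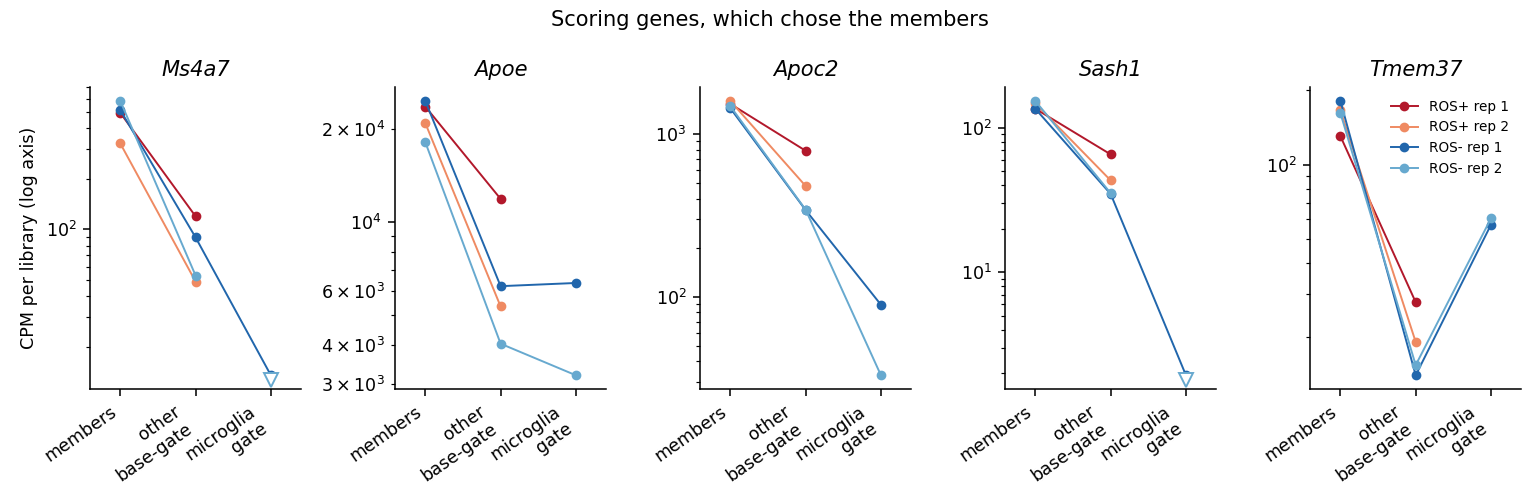
Level of each scoring gene in CPM (log axis) in high-score cells and the other gated cells of the 4 EAE libraries, 1 point per library, with microglia-gate cells of the EAE ROS- libraries for context. High-score cells lie above the other gated cells in each library, by the rule that chose them. Ms4a7 and Sash1 are close to 0 in microglia-gate cells, while Apoe is at 6353 and 3199 CPM there.

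Levels of the scoring genes in microglia are given as a description too. In the 180 and 92 EAE ROS- cells of replicates 1 and 2 with at least 10 UMIs of the 5 microglial genes and at most 2 of the 7 monocyte genes, Ms4a7 was at 13.6 and 0 CPM. Apoe was at 6353 and 3199 CPM and Tmem37 at 57.2 and 60.6 CPM in the same microglia. Ms4a7 was detected in 90.7% of high-score cells, against 24.6% of the other gated cells, and after thinning each cell to 2000 UMIs in 55.6% against 10.0%. Tmem37 was detected in 70.2% of high-score cells, against 11.01% of the others, and after thinning in 26.9% against 3.53%. As a gauge of free RNA in the droplets, 17 cells with T or natural killer cell RNA and little monocyte or microglial RNA were examined in the EAE ROS- libraries, with a gate chosen after cell counts were seen. Their median depths were 4522.5 and 3728 UMIs. Apoe was at 24572 and 18083 CPM in high-score cells of these libraries, against 1273 and 554 CPM in the T or natural killer cells. None of these 17 cells had an Ms4a7 UMI, which allows a share of up to 17.6%. Tmem37 was found in 2 of them (11.8%), before and after thinning, against 11.01% and 3.53% of the other gated cells. With so few cells, from the EAE ROS- libraries only, the part of background in its detection in the other gated cells was not tested.

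All 5 scoring genes were found in 334 high-score cells (43.6%), 4 of them in 345 (45.0%) and 3 in 87 (11.4%). Among the other gated cells 101 (2.33%) had all 5. The score had no gap at the boundary. The highest score was 3.10 and the median of all gated cells was 1.20, while the last cell kept and the first cell left out both scored 1.93. Within 0.1 of that boundary lay 192 high-score cells and 222 others. The score by itself does not say whether the cells are a separate type. Median scores of high-score cells were 2.20, 2.09, 2.13 and 2.13, against 1.55, 1.02, 0.966 and 0.913 in the other gated cells; those of EAE ROS+ replicate 1 stood apart.

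The gate genes, also used by the rule, moved in different directions. Plac8, a gene of circulating monocytes, was at 1144, 1816, 775 and 874 CPM in high-score cells, against 3517, 6490.0, 3624 and 4774 CPM in the others. S100a4, a calcium-binding protein gene of motile monocytes, was at 60.4, 53.9, 40.7 and 56.9 CPM in high-score cells, against 175, 317, 233 and 242 CPM in the others. Ccr2, the receptor that brings monocytes into tissue, was at 187, 202, 241 and 92.8 CPM in high-score cells, against 372, 464, 332 and 249 CPM in the others. Plac8 and S100a4 did not overlap between the 2 sets of cells, nor did Ccr2. Ly6c2, the gene of the Ly6C antigen of inflammatory monocytes, was at 1070.5, 1354, 573 and 1446 CPM in high-score cells, against 1646, 1640.2, 877 and 1387 CPM in the others. It overlapped between the sets and was slightly higher in high-score cells of EAE ROS- replicate 2. Fn1, Tgfbi and F10 had ratios of means of 1.09, 1.18 and 0.871. The microglial gate genes were capped by the rule. Among them Olfml3 was at 37.5, 37.95, 63.2 and 62.9 CPM in high-score cells, against 19.2, 10.01, 36.5 and 19.7 CPM in the other gated cells, higher in each library. Tmem119 was at 20.5, 21.97, 23.9 and 8.98 CPM in high-score cells, against 13.5, 10.6, 24.01 and 15.7 CPM in the others, and P2ry12, Sparc and Siglech had ratios of means of 0.729, 0.849 and 0.0570.

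The sort by dye had no part in the rule, so the share of high-score cells could be compared between ROS+ and ROS- libraries. They made up 39.1% (36.4 to 41.7, exact Clopper-Pearson 95% interval) and 5.67% (4.72 to 6.75) of gated cells in the EAE ROS+ libraries, against 14.2% (11.5 to 17.2) and 3.78% (2.71 to 5.11) in the EAE ROS- libraries. The intervals cover counting error only. The mean share was 22.4 ± 23.6% in EAE ROS+ and 8.99 ± 7.36% in EAE ROS- (SD, n = 2 each), a difference of 13.4 percentage points. An exact two-sided permutation test gave p = 0.667, where 2 against 2 libraries allow no p below 0.333. The difference rested on EAE ROS+ replicate 1, and without it the ROS+ minus ROS- difference was -3.32 points. Within replicate numbers 1 and 2, which the labels do not tie to an animal or day, it was 24.9 and 1.89 points. The groups overlapped, since EAE ROS- replicate 1 lay between the EAE ROS+ libraries. As shares of all cells in a library, high-score cells were 29.7% and 5.33% in EAE ROS+, against 5.45% and 2.62% in EAE ROS-. None of 1957 healthy cells passed the base gate, which allows a share of up to 0.153%.

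**Figure D2:**
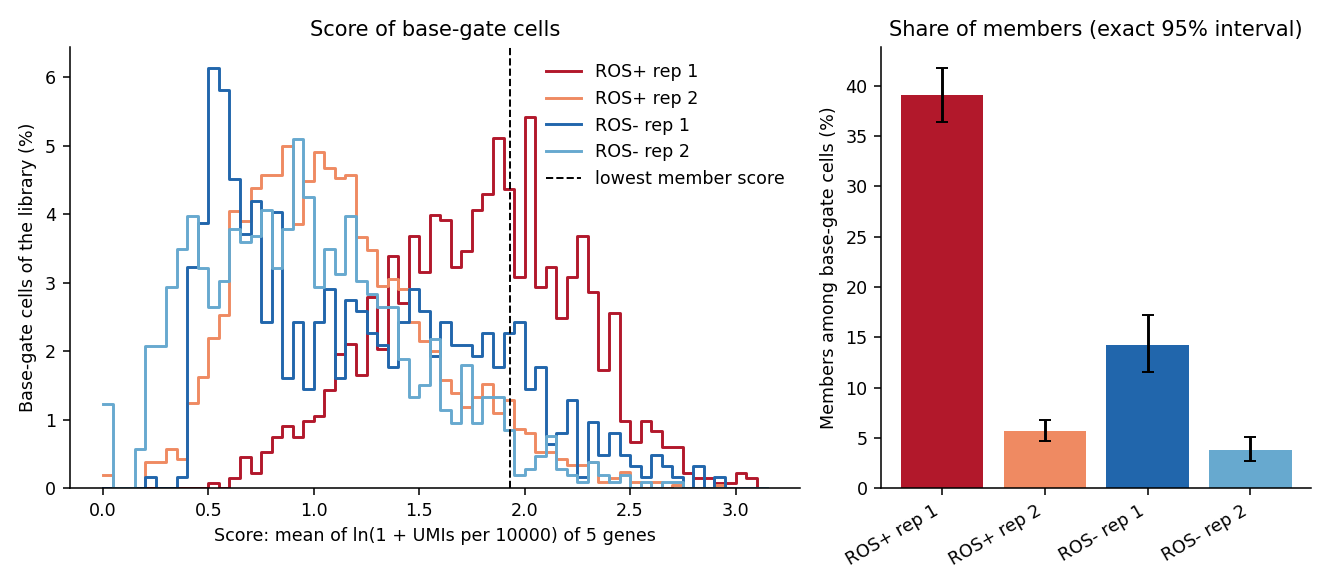
Distribution of the score over gated cells of each EAE library with the boundary at 1.93, and the percent of gated cells above it with exact 95% intervals. EAE ROS+ replicate 1 has 39.1% of its gated cells above the boundary, against 3.78% to 14.2% in the other libraries.

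Genes outside the rule were then compared between high-score cells and the other gated cells of the same libraries, with counts summed per library and the library as a block. Of 10372 genes tested, 364 were higher in high-score cells (3.51%) and 568 were lower (5.48%) at an adjusted p under 0.05 (edgeR quasi-likelihood test, Benjamini-Hochberg). Since the score itself defines this comparison, the calls describe which genes go with the score, and nothing is read from their number. The number of calls depended on the setting: 182 higher and 281 lower without EAE ROS+ replicate 2, 246 and 376 with EAE ROS- replicate 2 left out, 61 and 48 without the library block, and 72 and 117 after thinning to 2000 UMIs per cell. Thinned cells were gated and ranked anew, so that 48.8%, 34.5%, 34.3% and 34.7% of the high-score cells were those of the main choice. Of 783 calls that could be tested after thinning, 769 kept their direction. Of the named genes called, 58 lost the call without the library block, 32 after thinning and 13 without EAE ROS+ replicate 2. Genes described below that lost it after thinning include Nos2, Rac2, Prdx5, Txnrd1, Gpx4, F13a1, Procr, Csf2rb, Pfkp, Ndufa4, H2afz and Fos, with adjusted p from 0.055 to 0.26. Counts of gene lists are given below with the median log2 fold change, which was 0.0010 over all genes tested.

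Most of the lysosomal genes tested were higher. Of 20 tested genes of a lysosome and efferocytosis list, 14 were higher in high-score cells and 1 was lower, with a median log2 fold change of 0.57. Lgmn, which encodes the lysosomal endopeptidase legumain, was at 858, 834, 1219.7 and 1078 CPM in high-score cells, against 455, 334, 511 and 381 CPM in the other gated cells (log2 fold change 1.23 ± 0.09, SE, adjusted p = 1.3e-09). The groups did not overlap. Ctsd, encoding the aspartic protease cathepsin D, was at 2491, 2998, 2582 and 3191 CPM in high-score cells, against 1419, 1377, 1427 and 1373 CPM in the others (0.99 ± 0.08, adjusted p = 7e-09). Its level in the other gated cells was nearly equal in the 4 libraries, and the groups did not overlap. Ctsb, encoding the cysteine protease cathepsin B, was at 2775, 2875, 2785 and 3874 CPM in high-score cells, against 1604, 1469.6, 1341 and 1604 CPM in the others (1.01 ± 0.08, adjusted p = 6.4e-09). Ctsl, Ctss and Ctsa, further cathepsin genes, had log2 fold changes of 0.93 ± 0.11, 0.63 ± 0.08 and 0.56 ± 0.09, and Lamp1 and Cd68, lysosomal membrane proteins, of 0.43 ± 0.08 and 0.61 ± 0.08. Mertk, a receptor by which macrophages engulf dead cells and myelin, was at 31.8, 40.95, 25.3 and 35.9 CPM in high-score cells, against 16.4, 12.6, 13.3 and 12.01 CPM in the others (1.21 ± 0.17, adjusted p = 1.9e-05). Ctsc, which encodes the activator of granule serine proteases, went the other way at 1339.5, 1654, 1469 and 1587 CPM in high-score cells, against 1835, 2112, 1606 and 2121 CPM in the others (-0.35 ± 0.08, adjusted p = 0.0056). Ctsd was at 1157 and 381 CPM in the 17 T or natural killer cells used to gauge free RNA, below each value of the high-score cells. Microglia stood higher: summed over the 22 genes of the list, they were at 57762 and 50239 CPM in the EAE ROS- libraries. High-score cells of these libraries were at 26131 and 31543 CPM, and the other gated cells at 17041 and 19231 CPM.

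Transcription of lysosomal genes is known to be driven through the E-box CACGTG, which TFEB and related factors bind. Promoter windows of RefSeq (GRCm38.p6, 250 bases before to 50 after each gene start) were searched for these 6 letters, which read the same on both strands. The motif was in 6 of 13 list genes that were higher in high-score cells and had a window (46.2%), in 6 of 20 genes of the whole list (30.0%), in 39 of 255 genes higher in high-score cells (15.3%), in 34 of 401 lower genes (8.48%), in 870 of 6927 tested genes (12.6%) and in 2187 of 27025 genes of the table (8.09%). The 6 genes were Lgmn, Ctsd, Ctsl, Ctsa, Lamp1 and Gla. Part of the promoter is shown for 3 of them, the proteases with large changes, with the motif in capitals. It begins 49 bases before the start of Lgmn (window chr12:102439043-102439342, minus strand), 98 before that of Ctsd (window chr7:142387778-142388077, minus strand) and 236 before that of Ctsl (window chr13:64370471-64370770, minus strand). The Ctsd window holds a further match, outside the part shown, that begins 245 bases before the start. A match describes the letters in these windows and not binding of a factor.
Lgmn: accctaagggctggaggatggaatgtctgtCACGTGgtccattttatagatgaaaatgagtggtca
Ctsd: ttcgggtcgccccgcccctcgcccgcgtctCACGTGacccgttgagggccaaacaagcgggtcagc
Ctsl: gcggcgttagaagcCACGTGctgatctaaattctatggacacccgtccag

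Of 23 tested genes for lipid handling, 10 were higher and 1 was lower, with a median log2 fold change of 0.40. Fabp5, a carrier of fatty acids in the cytoplasm, was at 765, 1299, 528 and 1874 CPM in high-score cells, against 306, 349, 156 and 366 CPM in the other gated cells (1.82 ± 0.11, adjusted p = 9.4e-11). The groups did not overlap, although EAE ROS- replicate 1 was low in both. Abca1, which exports cholesterol to apolipoproteins, was at 152, 157, 126 and 126 CPM in high-score cells, against 96.6, 59.8, 57.5 and 66.5 CPM in the others (0.99 ± 0.11, adjusted p = 2.1e-06). Pltp, the phospholipid transfer protein, was at 28.8, 13.98, 63.2 and 50.9 CPM in high-score cells, against 13.02, 8.53, 20.7 and 8.15 CPM in the others (1.38 ± 0.19, adjusted p = 2.4e-05), but it no longer passed without any microglial UMI allowed (adjusted p = 0.079) or after thinning (adjusted p = 0.43). Nr1h3, the oxysterol receptor LXR alpha that controls Abca1 and Apoe, had a log2 fold change of 0.95 ± 0.15. Lrp1, an uptake receptor for apolipoprotein E, had one of 0.74 ± 0.11, Npc1 and Lipa of the lysosomal cholesterol route 0.63 ± 0.14 and 0.53 ± 0.11, and Plin2 of lipid droplets 0.48 ± 0.10. Olr1, a receptor for oxidised low-density lipoprotein, fell (-0.71 ± 0.17, adjusted p = 0.007), and Lpl, lipoprotein lipase, did not pass (-0.65 ± 0.27, adjusted p = 0.17). Apoc4, 1 of the 10 higher genes, lies 142 bases from the end of Apoc2 on chromosome 7, so its few counts (4.47, 4.00, 2.81 and 2.99 CPM in high-score cells) may hold Apoc2 reads and are uncertain.

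Complement and lipid-associated macrophage genes split. C1qa, 1 of 3 genes for the chains of the recognition molecule C1q, was at 1702, 1207, 2632 and 1683 CPM in high-score cells, against 964, 305, 1249.9 and 557 CPM in the other gated cells (1.35 ± 0.12, adjusted p = 6e-08). The level was higher in high-score cells of each library, but the groups overlapped between libraries, and EAE ROS- replicate 1 was the highest in both. C1qb and C1qc moved with it, at 1.30 ± 0.13 and 1.37 ± 0.13. All 3 lost their call without the library block (adjusted p = 0.13, 0.088 and 0.11). C1qa was at 13896 and 12031 CPM in microglia and at 579 and 242 CPM in the T or natural killer cells. The receptors for complement fragments C3a and C5a were higher too, C3ar1 at 215, 217, 192 and 296 CPM in high-score cells, against 125, 114, 69.5 and 91.9 CPM in the others (1.13 ± 0.12, adjusted p = 4.2e-07), and C5ar1 at 0.91 ± 0.16. Cfb, complement factor B of the alternative pathway, and Itgax, the CD11c chain of a complement receptor, were lower at -0.36 ± 0.09 and -0.82 ± 0.18. In all, 6 of 13 complement genes were higher and 2 lower, with a median of 0.15.

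Of 15 tested genes of lipid-associated and remodelling macrophages, 5 were higher and 2 lower, with a median of 0.13. Gpnmb, a transmembrane glycoprotein of lysosome-rich macrophages, was at 348, 373, 220.4 and 401 CPM in high-score cells, against 144, 119, 76.4 and 102 CPM in the other gated cells (1.57 ± 0.10, adjusted p = 1.7e-10). Spp1, the secreted matrix protein osteopontin, was at 712, 933, 597 and 485 CPM in high-score cells, against 291, 385, 185 and 329.8 CPM in the others (1.22 ± 0.12, adjusted p = 1.9e-07). Neither gene overlapped between the sets of cells. Cd63, a tetraspanin of late endosomes, was at 264, 311, 233 and 521 CPM in high-score cells, against 137, 106, 120.3 and 127 CPM in the others (1.34 ± 0.12, adjusted p = 8.2e-08). Its reads may be shared with the pseudogene Cd63-ps, which was called too, and Gm6166, whose name marks a predicted gene, is likewise uncertain. Clec7a, the beta-glucan receptor Dectin-1, and Mmp12, macrophage elastase, were lower at -0.72 ± 0.09 and -0.52 ± 0.12. A pair of genes outside the lists were among the largest rises, Syngr1, a vesicle membrane protein, at 1.52 ± 0.11, and Rnase4, a secreted ribonuclease, at 1.25 ± 0.13.

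**Figure D3:**
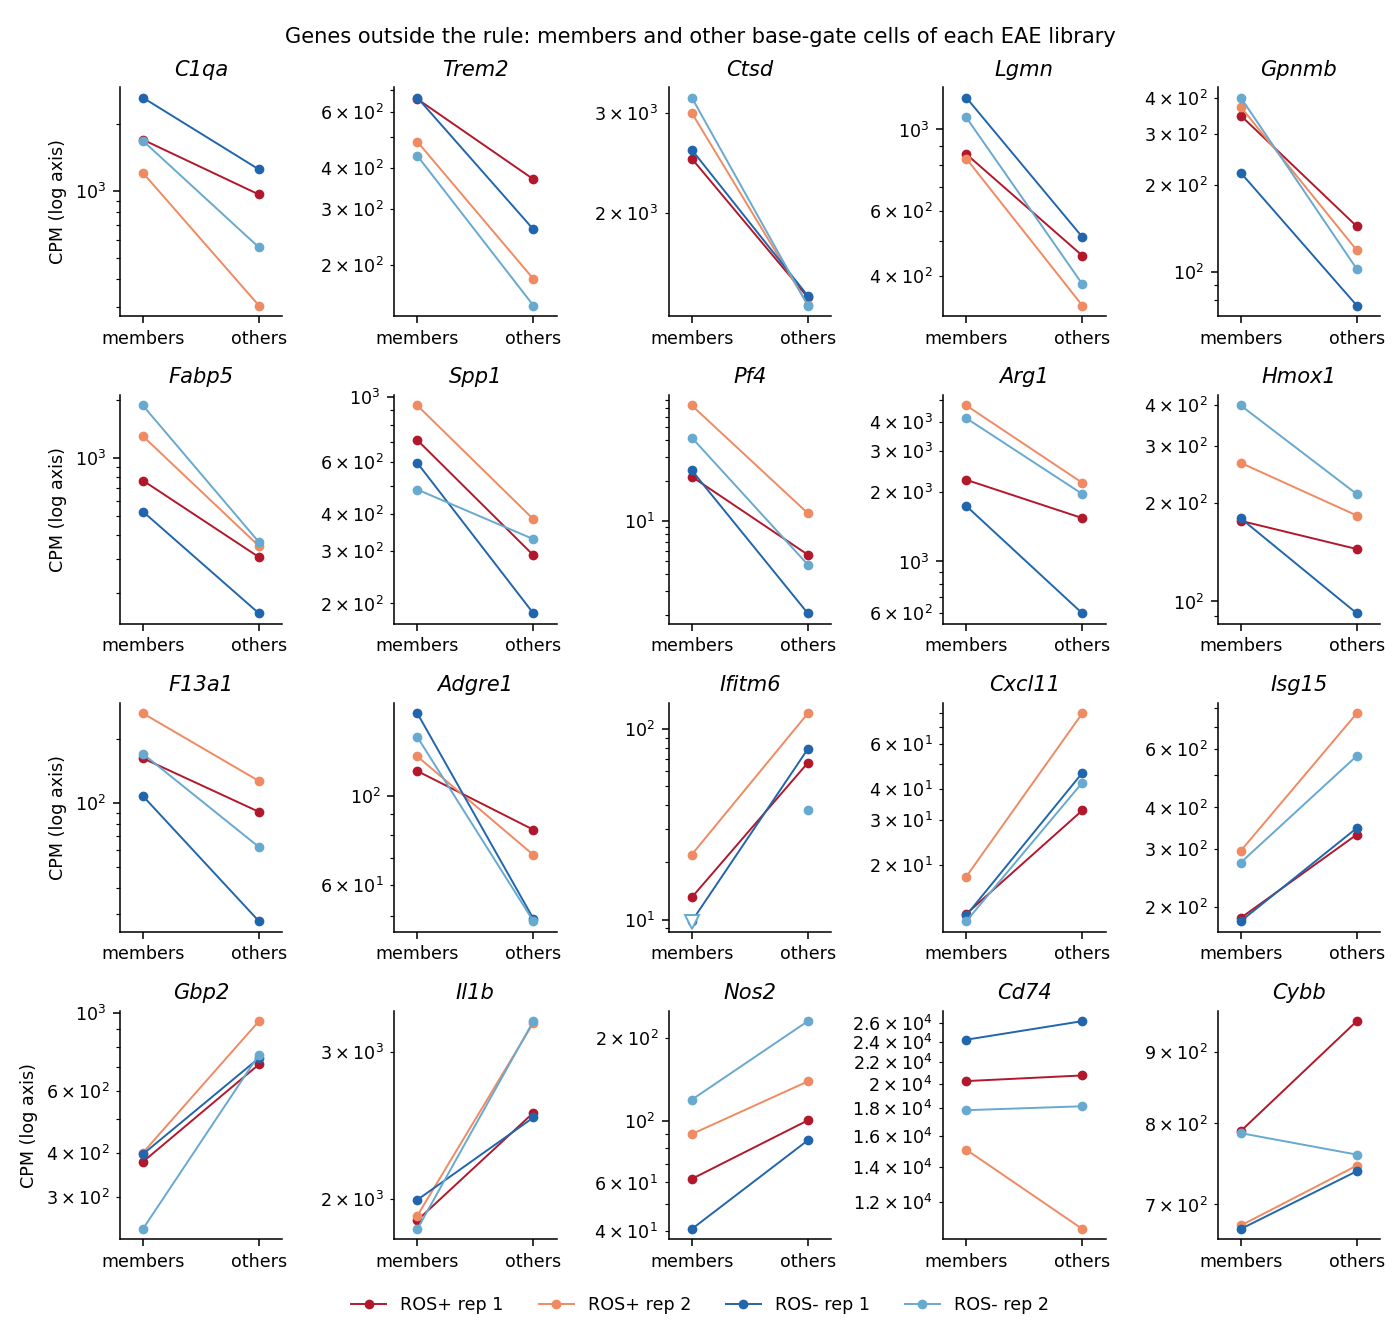
Level in CPM (log axis) of 20 named genes in high-score cells and the other gated cells, with a line joining the 2 values of each EAE library and open triangles for values of 0. Lines climb toward high-score cells for C1qa, Trem2, Ctsd, Lgmn, Gpnmb and Fabp5 and descend for Ifitm6, Isg15 and Gbp2, while those of Cd74 and Cybb share no direction over the 4 libraries; each gene has its own axis range.

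Markers of other tissue macrophages were examined beside these changes. Trem2, a lipid-sensing receptor shared by microglia and lipid-laden macrophages, was at 656, 483, 662 and 437 CPM in high-score cells, against 369.8, 181, 259 and 150.0 CPM in the other gated cells (1.25 ± 0.10, adjusted p = 7e-09), and at 1483 and 1023 CPM in microglia. Cx3cr1, the fractalkine receptor, was at 184, 57.9, 209 and 71.9 CPM in high-score cells, against 129, 38.8, 145 and 50.3 CPM in the others (0.53 ± 0.10, adjusted p = 0.00065), and lost its call without the library block (adjusted p = 0.63) and after thinning (adjusted p = 0.17). Over the 12 microglial markers outside the gate, the summed level was 1484, 1173, 1902 and 1221 CPM in high-score cells, against 1066, 716, 1302 and 789 CPM in the other gated cells, and 12904 and 12445 CPM in microglia. Of 9 tested genes 4 were higher, Trem2, Cx3cr1 and Fcrls among them, and 1 was lower (Selplg). Fcrls was higher in only 2 of 4 libraries. The part of microglial RNA in the results was not tested beyond the fit that allowed no microglial UMI, where the cells were chosen anew and 43.3% to 71.9% of the high-score cells of a library were those of the main choice. There Trem2, Gpnmb, Lgmn and C1qa kept their calls, while 11 named genes lost theirs, Pltp, Maf, Cd80, Cd86 and Prdx5 among them, and Slc1a2 turned its direction.

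Of border macrophage genes, Pf4, platelet factor 4, was at 21.4, 72.9, 23.9 and 41.9 CPM in high-score cells, against 5.60, 11.4, 2.04 and 4.72 CPM in the other gated cells (2.54 ± 0.20, adjusted p = 6.4e-09), the largest rise of all named genes. Stab1, a scavenger receptor, was at 96.7, 75.9, 85.6 and 126 CPM in high-score cells, against 73.4, 59.3, 40.1 and 47.9 CPM in the others (0.66 ± 0.13, adjusted p = 0.002), and lost its call without the library block (adjusted p = 0.10) and after thinning (adjusted p = 0.34). Mrc1, the mannose receptor, stayed at 3.08, 5.99, 1.40 and 2.99 CPM in high-score cells, against 1.34, 1.10, 2.55 and 1.29 CPM in the others, and did not pass (adjusted p = 0.095). It passed without EAE ROS- replicate 1 (adjusted p = 0.043). Lyve1, Cd163 and Cd209f, which define macrophages of the meninges and vessels, had no UMI in the 766 high-score cells, which allows each up to 0.352 CPM. Pf4 and Stab1 were the 2 of 5 tested genes of this list that passed.

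Of 10 tested iron and heme genes, 6 were higher and none lower, with a median of 0.58. Hmox1, heme oxygenase 1, was at 177, 266, 179.7 and 398 CPM in high-score cells, against 145, 183, 91.96 and 213 CPM in the other gated cells (0.62 ± 0.10, adjusted p = 0.00027). Ftl1, the ferritin light chain, was at 13976, 16241, 10948 and 16104 CPM in high-score cells, against 10571, 10337, 7063 and 10226 CPM in the others (0.58 ± 0.07, adjusted p = 3.6e-06). Slc48a1, which moves heme out of lysosomes, and Slc11a1, which moves iron out of phagosomes, had log2 fold changes of 0.57 ± 0.13 and 0.59 ± 0.13. The transferrin gene Trf was at 0.63 ± 0.11. Hmox1 and Trf did not pass after thinning (adjusted p = 0.46 and 0.19).

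Of 9 tested monocyte genes outside the gate, 6 were lower and none higher, with a median of -0.62. Ifitm6, an interferon-induced transmembrane protein gene of immature monocytes, was at 13.1, 21.97, 9.82 and 0 CPM in high-score cells, against 66.6, 121, 78.7 and 37.5 CPM in the other gated cells (-2.50 ± 0.16, adjusted p = 2.1e-10). Ifitm6 did not overlap between the sets of cells. Chil3, a chitinase-like protein of inflammatory monocytes, was at 417, 560.3, 188 and 344 CPM in high-score cells, against 751, 1201, 97.6 and 418 CPM in the others and did not pass (-0.47 ± 0.18, adjusted p = 0.12). It did pass without EAE ROS- replicate 1 (-0.82, adjusted p = 4.1e-07), without a filter on low counts (adjusted p = 2.4e-05), after thinning (adjusted p = 0.016) and without cells bearing markers of other types (adjusted p = 0.040).

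Interferon-response genes were the group with the most falls, 13 of 15 tested and none higher, with a median of -0.68. Gbp2, a guanylate-binding protein induced by interferon gamma, was at 377, 399.5, 396 and 242 CPM in high-score cells, against 713, 946, 743 and 759 CPM in the other gated cells (-1.14 ± 0.10, adjusted p = 7.1e-08). Isg15, a ubiquitin-like modifier, was at 185, 296, 181 and 272 CPM in high-score cells, against 331, 771, 347 and 573 CPM in the others (-1.06 ± 0.10, adjusted p = 8.2e-08). Both were lower in each library without overlap. The chemokine Cxcl9, which draws T cells, was at 394, 219, 389 and 77.8 CPM in high-score cells, against 651, 687, 621 and 501 CPM in the others (-1.21 ± 0.17, adjusted p = 2.5e-05). Irf7 and Bst2 were the tested members that did not pass. Outside the list, the interferon-inducible genes Cxcl11, Ifi205 and Ifitm1 were among the largest falls at -1.65 ± 0.16, -1.38 ± 0.11 and -1.51 ± 0.16. Ifitm1 was at 248, 199.8, 399 and 201 CPM in high-score cells, against 409.6, 489, 2165 and 683 CPM in the others, where EAE ROS- replicate 1 stood apart.

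**Figure D4:**
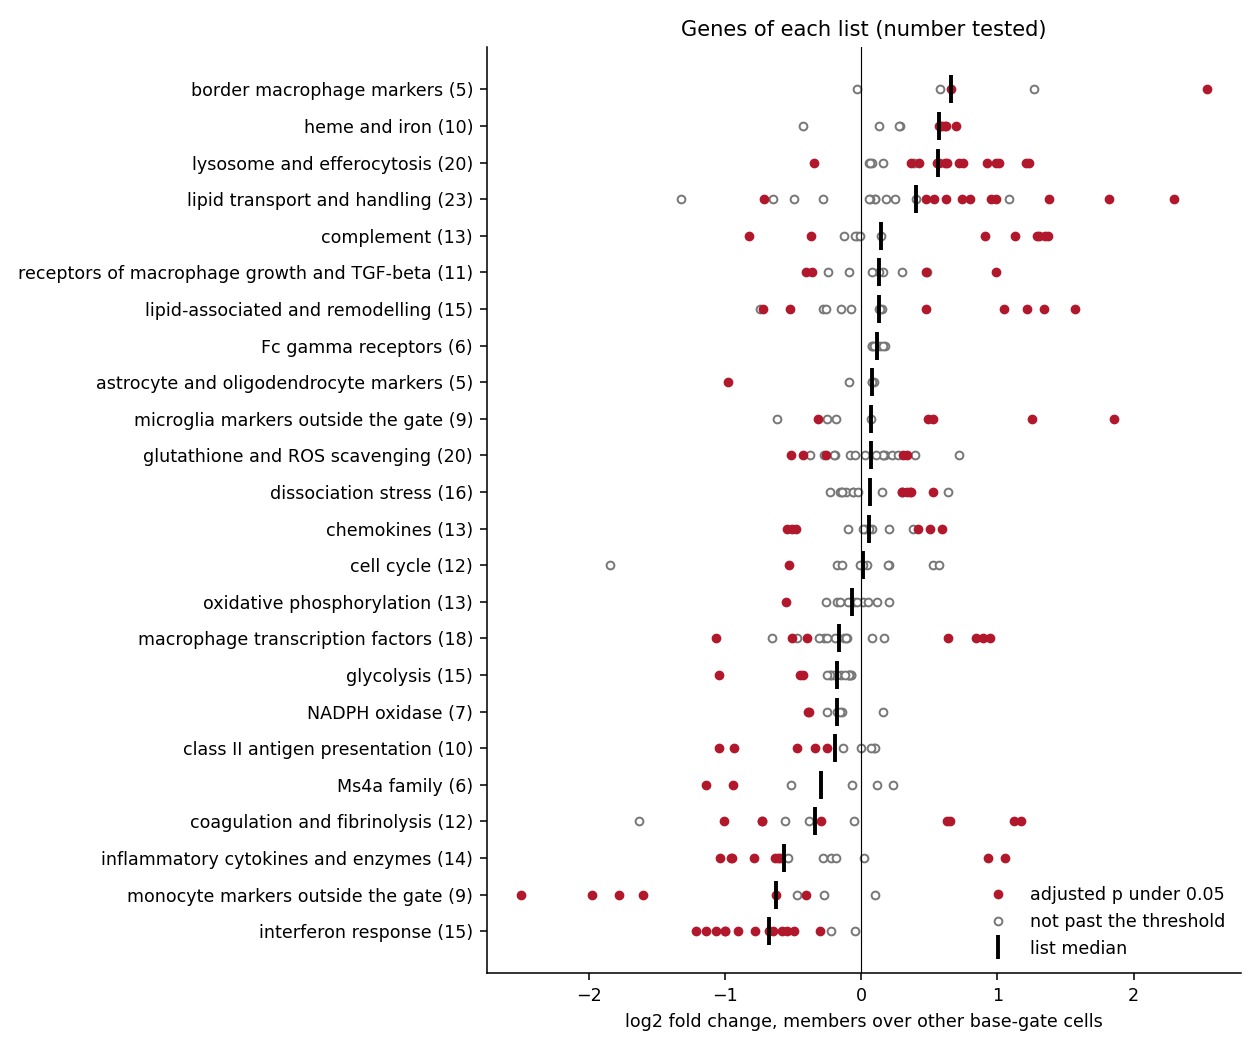
Log2 fold change of high-score cells over the other gated cells for each tested gene of the gene lists with at least 5 tested genes, with genes at adjusted p under 0.05 in red. Lysosome, lipid transport and heme genes lie mostly above 0 and interferon-response genes mostly below it.

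Of 14 tested inflammatory genes, 7 were lower and 2, Arg1 and Saa3, were higher, with a median of -0.56. Arg1, which consumes arginine and marks repair-type macrophages in mice, was at 2255, 4728, 1738 and 4164 CPM in high-score cells, against 1541, 2188, 597 and 1959 CPM in the other gated cells (1.06 ± 0.11, adjusted p = 2.7e-07). Nos2, the inducible nitric oxide synthase that uses the same substrate, was at 61.8, 89.9, 40.7 and 119.8 CPM in high-score cells, against 101, 139, 85.3 and 231 CPM in the others (-0.79 ± 0.10, adjusted p = 1.2e-05). Each of the 4 libraries showed both directions, although the levels of the 2 sets overlapped between libraries. Il1b, encoding interleukin 1 beta, was at 1886, 1911, 1996 and 1841 CPM in high-score cells, against 2539.5, 3256, 2506 and 3271 CPM in the others (-0.59 ± 0.09, adjusted p = 5.9e-05). The high-score cells varied little between libraries, with a mean of 1908 ± 64.98 CPM, against 2893 ± 428 CPM in the others (SD, n = 4 each). Il1rn, the antagonist of the same receptor, fell too (-0.96 ± 0.13, adjusted p = 1.2e-05), as did Il6 and Inhba (-1.04 ± 0.18 and -0.94 ± 0.13). Saa3, an acute-phase serum amyloid, was at 2208, 2335, 606 and 3509 CPM in high-score cells, against 2079.8, 1369.9, 486 and 537 CPM in the others (0.93 ± 0.23, adjusted p = 0.011). Its call was lost under 3 of 16 alternatives, with adjusted p up to 0.45. DESeq2 (adjusted p = 0.42) and the fit without EAE ROS+ replicate 2 (adjusted p = 0.052) were among them. Arg1 and Nos2 lost their calls without the library block (adjusted p = 0.23 and 0.21).

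Of 10 tested class II and costimulatory genes, 5 were lower and none higher, with a median of -0.19. Cd74, the class II invariant chain, was at 20242, 15058, 24194 and 17855 CPM in high-score cells, against 20740.1, 10701, 26209 and 18161 CPM in the other gated cells (0.07 ± 0.08, adjusted p = 0.72). H2-Aa, a class II chain, did not pass either (0.10 ± 0.09, adjusted p = 0.63). The costimulatory genes Cd40, Cd80 and Cd86 all fell, at -0.93 ± 0.15, -1.05 ± 0.21 and -0.47 ± 0.11. Cd40 was at 54.1, 27.97, 85.6 and 50.9 CPM in high-score cells, against 92.3, 103, 113 and 114 CPM in the others (adjusted p = 0.00013), with no overlap. H2-DMa and H2-DMb1, which load peptides onto class II molecules, were lower as well, at -0.25 ± 0.08 and -0.34 ± 0.09. Cd86 lost its call without EAE ROS+ replicate 2 (adjusted p = 0.087), and the 3 costimulatory genes lost theirs after thinning (adjusted p = 0.20, 0.35 and 0.34). Cd80 and Cd86 also lost theirs where no microglial UMI was allowed (adjusted p = 0.16 and 0.085).

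Genes that make or remove ROS, the subject of the sort, were examined next. Cybb, the catalytic chain of the phagocyte NADPH oxidase, was at 790.0, 676, 672 and 787 CPM in high-score cells, against 947, 746, 739.5 and 760.0 CPM in the other gated cells (-0.14 ± 0.08, adjusted p = 0.37). Ncf1, the organising subunit p47phox, was at 159.6, 155, 150.2 and 132 CPM in high-score cells, against 164, 188, 166 and 170.3 CPM in the others (-0.18 ± 0.09, adjusted p = 0.30). Rac2, the small GTPase that activates the oxidase, was lower (-0.39 ± 0.09, adjusted p = 0.006), and lost its call without EAE ROS+ replicate 2 (adjusted p = 0.067). Of 7 oxidase genes tested none was higher and 2 were lower, with a median of -0.18. Of 20 glutathione and ROS scavenging genes, 2 were higher and 3 lower, with a median of 0.071. Over all 10372 genes tested, 3.51% were higher and 5.48% were lower. Gpx4, which reduces lipid peroxides, was higher (0.31 ± 0.08, adjusted p = 0.016), while Prdx5, a peroxiredoxin, and Txnrd1, thioredoxin reductase, were lower (-0.43 ± 0.08 and -0.52 ± 0.12). The Gpx4 call was lost under 7 of 16 alternatives, with adjusted p up to 0.30. These include the fits without EAE ROS+ replicate 2 and without either EAE ROS- replicate (adjusted p = 0.11, 0.071 and 0.091).

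Coagulation genes were divided, with 4 of 12 tested higher, 4 lower and a median of -0.34. F13a1, the transglutaminase subunit that stabilises fibrin, was at 163, 265, 108 and 171 CPM in high-score cells, against 91.04, 127, 27.8 and 62.2 CPM in the other gated cells (1.17 ± 0.13, adjusted p = 6.5e-07). Procr, the receptor for the anticoagulant protein C, was at 33.6, 31.96, 37.9 and 20.96 CPM in high-score cells, against 60.1, 53.6, 84.6 and 102 CPM in the others (-1.01 ± 0.14, adjusted p = 3.2e-05). F13a1 was higher and Procr lower in each of the 4 libraries. Anxa2, which binds plasminogen activator at the cell surface, was lower (-0.73 ± 0.10), while F7 and Thbs1, coagulation factor VII and thrombospondin 1, were higher (0.63 ± 0.15 and 0.65 ± 0.15).

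Regulators of macrophage identity changed in both directions. Maf, a transcription factor of macrophage differentiation, was at 67.4, 59.9, 49.1 and 68.9 CPM in high-score cells, against 42.6, 40.1, 20.7 and 20.7 CPM in the others (0.84 ± 0.14, adjusted p = 0.00031). Maf did not overlap between the sets of cells, but its call was lost after thinning (adjusted p = 0.51). Bhlhe40, which is linked to cytokine production in myeloid cells, was at 64.6, 88.9, 60.4 and 74.8 CPM in high-score cells, against 93.1, 202, 167 and 252 CPM in the others (-1.06 ± 0.14, adjusted p = 8e-06), while its paralog Bhlhe41 was higher at 0.94 ± 0.23. Of 18 transcription factors tested, 4 were higher and 3 lower, with a median of -0.16. Adgre1, the macrophage surface protein F4/80, was at 116, 126, 161 and 141 CPM in high-score cells, against 82.4, 71.3, 49.3 and 48.6 CPM in the others (0.99 ± 0.14, adjusted p = 5e-05). Of growth factor receptors, Csf2rb and Csf2ra for GM-CSF were lower (-0.41 ± 0.09 and -0.36 ± 0.09) and Csf1r for M-CSF did not pass (0.16 ± 0.08, adjusted p = 0.28); Csf2rb lost its call without EAE ROS+ replicate 2 (adjusted p = 0.062).

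Of 6 other genes of the Ms4a family tested, none was higher and 2 were lower. Ms4a4c, a monocyte member of the family, was at 184, 281, 177 and 335 CPM in high-score cells, against 342, 577, 380.4 and 539.7 CPM in the other gated cells (-0.94 ± 0.09, adjusted p = 1.1e-07). The second was Ms4a4b at -1.14 ± 0.27. None of 6 Fc receptor genes passed in either direction. Glycolysis genes held 3 falls among 15 tested, led by the phosphofructokinase Pfkp (-1.04 ± 0.11, adjusted p = 1e-06), with a median of -0.17. Oxidative phosphorylation and cell cycle genes held 1 fall each among 13 and 12 tested, Ndufa4 and H2afz, and Mki67, a proliferation marker, did not pass (0.21 ± 0.21, adjusted p = 0.68). Of chemokine genes, 3 were higher and 3 lower among 13.

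Of 16 tested genes induced by tissue dissociation, 6 were higher and none lower, with a median of 0.067 and as many fold changes above 0 as below it. Fos was at 2838, 2771, 3227 and 2644 CPM in high-score cells, against 2709.9, 2293, 2067 and 1876 CPM in the other gated cells (0.36 ± 0.09, adjusted p = 0.0075), and it did not pass without either EAE ROS- replicate (adjusted p = 0.11 and 0.086). The part of dissociation in the other results was not tested.

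Markers of further cell types were counted in both sets of cells. Cells with at least 3 UMIs of dendritic cell, neutrophil granule or T and natural killer cell markers were 2 of 766 among high-score cells, against 209 of 4340 among the others. Several of the largest falls among the named genes rested on them. Ngp, a neutrophil granule gene, was at 2.62, 4.99, 0 and 0 CPM in high-score cells, against 79.96, 151, 0.255 and 0.143 CPM in the others (-4.91 ± 0.21, adjusted p = 8.9e-14), and 20 cells held 96.0% of its UMIs in the others. Camp and the dendritic cell chemokine Ccl17 were at -4.31 ± 0.22 and -3.01 ± 0.24. Without the marker-bearing cells, an alternative chosen after the data were seen, the log2 fold changes were -0.28 for Ngp, -0.66 for Camp and -0.18 for Ccl17 (adjusted p = 0.77, 0.34 and 0.92). Summed over their lists, dendritic cell markers were at 4.01, 2.00, 16.8 and 56.9 CPM in high-score cells, against 12.8, 15.96, 196 and 386 CPM in the others, lower in each library. Neutrophil markers were at 224, 355, 116 and 186 CPM in high-score cells, against 1193, 1700.4, 52.9 and 137 CPM in the others, so the order turned in the ROS- libraries. T and natural killer cell markers were at 94.7, 76.9, 109.5 and 111 CPM in high-score cells, against 59.3, 41.8, 369 and 153 CPM in the others, higher in both ROS+ libraries and lower in both ROS- libraries. Il7r alone was at 93.7, 76.9, 98.2 and 102 CPM in high-score cells and 2 of the 9 genes of that list had no UMI there. B cell markers were at 5.09, 4.00, 7.02 and 2.99 CPM in high-score cells, against 2.80, 2.03, 3.58 and 1.14 CPM in the others, higher in each library, with no UMI for 4 of 5 genes. Astrocyte and oligodendrocyte markers were at 95.1, 86.9, 102 and 83.8 CPM in high-score cells, against 105, 76.4, 95.8 and 92.4 CPM in the others, with no common direction, and endothelial markers were at 72.2, 107, 68.8 and 147 CPM in high-score cells, against 108, 141, 116 and 131 CPM in the others. Without the marker-bearing cells the counts of 363 higher and 574 lower genes differed little, and 868 of the 932 calls were shared. Of the remaining marker lists, T and natural killer cell genes had 1 higher (Il7r) and 1 lower (Cd3d) of 2 tested, astrocyte and oligodendrocyte genes 1 lower of 5, endothelial genes 1 lower of 3 and B cell genes none of 1.

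Within each library the genes changed by degrees along the score. In EAE ROS+ replicate 1, Trem2 was at 238, 379, 433, 560.2 and 758 CPM in 5 equal bins of gated cells from the lowest to the highest score, and in EAE ROS- replicate 2 at 54.9, 94.1, 159.8, 160.4 and 316 CPM. Arg1 went through 82.0, 290.5, 634, 1134 and 1574 CPM in EAE ROS- replicate 1 and through 1208, 1468, 1848, 2487 and 3914 CPM in EAE ROS+ replicate 2. Both series climbed at each step. Nos2 did not follow one course: in EAE ROS- replicate 1 it was at 40.4, 70.9, 109.7, 109.5 and 58.3 CPM, with the top in the middle bins. Cd74 climbed only in EAE ROS+ replicate 2, with 13859 CPM in the highest bin, against 7943 CPM in the lowest. The bins share libraries and depth differences, and no test was made of them.

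**Figure D5:**
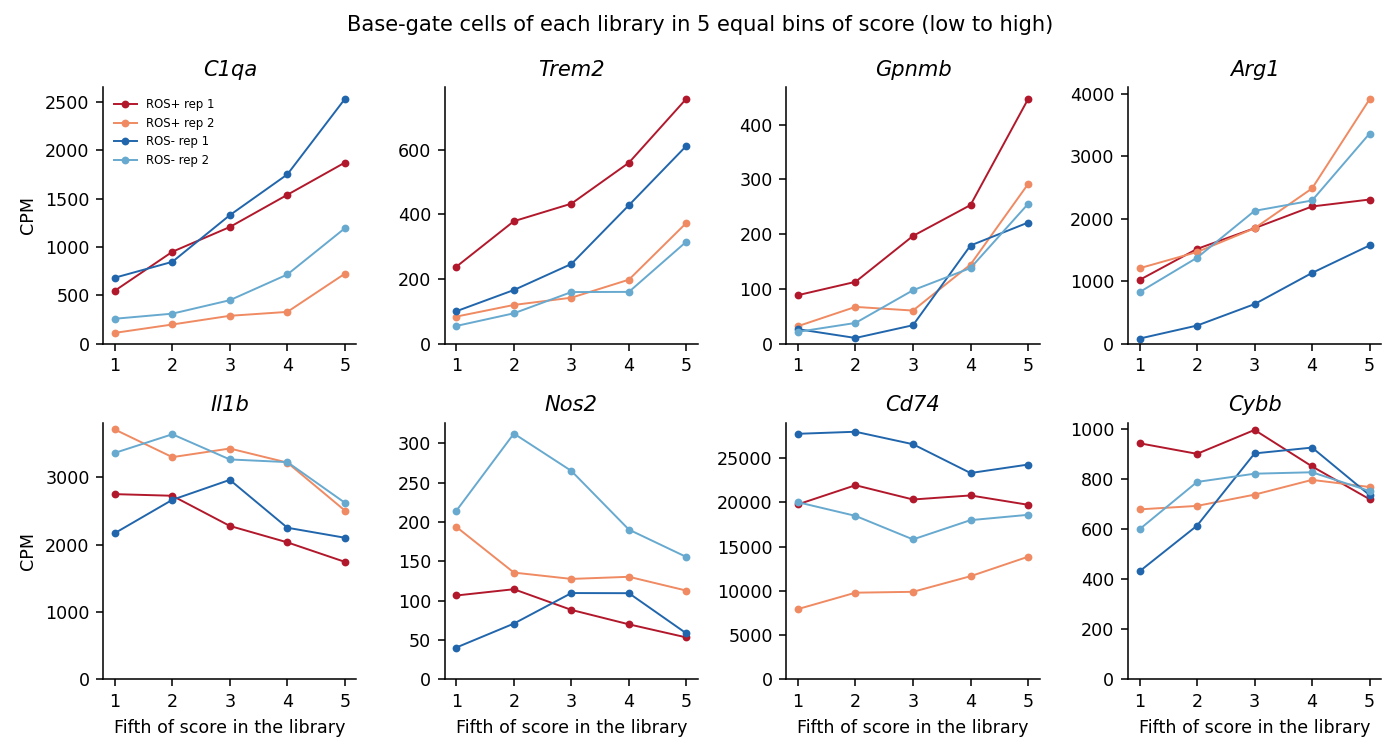
Level in CPM of 8 genes in gated cells of each EAE library divided into 5 equal bins by score, lowest bin at left. Trem2 and Arg1 climb across the bins in the 4 libraries, Il1b is lowest in the highest bin of each, and Cybb shows no common course.

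Over the 5106 gated cells and 7615 genes compared, the genes whose counts followed the score most closely were Trem2 (Spearman 0.60), Ctss (0.56), Itm2b (0.55), Ctsd (0.54) and Ftl1 (0.54). Within the libraries, in the order used throughout, the values were 0.54, 0.43, 0.61 and 0.43 for Trem2 and 0.44, 0.52, 0.67 and 0.56 for Ctss. Ctss thus stood above Trem2 in 3 of 4 libraries, and the order over all cells is not that within a library. These correlations describe cells that share libraries and differ in depth.

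Some genes varied more among high-score cells than counting alone gives. The other gated cells were not measured in this way. With each cell thinned to 2000 UMIs, variance over mean was taken within each library for 551 genes with a mean of at least 0.5 thinned UMIs, and its median was 1.14, where counting alone gives a value near 1. Saa3 reached a mean of 18.4, from 7.11 in EAE ROS- replicate 1 to 42.2 in EAE ROS- replicate 2. The ferritin heavy chain Fth1 was at 17.9 and Spp1 at 10.9, followed by Actb, the cytoskeletal beta-actin (9.57), and Lyz2, lysozyme (9.11). Spp1 was detected in 65.5% of high-score cells. Ccl5 (8.85), Cd74 (7.46), Cxcl2 (7.40), H2-Ab1 (5.36) and Arg1 (5.20) completed the 10 highest. The ratio was not corrected for a gene's level, and Fth1, Cd74 and Lyz2 are among the more abundant of these 10.

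Whether ROS+ and ROS- high-score cells differed in expression was tested over the 4 summed libraries without a block. None of 6458 genes passed in either direction (0.0% higher and 0.0% lower, edgeR quasi-likelihood test), while 319 had an unadjusted p under 0.05. DESeq2 called 3 genes, all lower in ROS+. Those 3, named after their values were seen, were Ccl8, a monocyte-attracting chemokine at 0.925, 0, 12.6 and 47.9 CPM, the tetraspanin Cd81 at 47.2, 24.97, 211 and 80.8 CPM and Gm15056 at 89.6, 66.9, 204 and 254 CPM. The Ccl8 values rest on few UMIs, as the high-score cells of EAE ROS- replicate 2 held 334022 UMIs of all genes together. For Cd81 the other gated cells showed the same order of libraries, at 36.6, 18.1, 193 and 72.2 CPM. With an EAE ROS+ library left out, the spread came from the 2 EAE ROS- libraries only, so calls of those fits are not given.

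Single values give the scale of what could be seen. Cybb averaged 733 ± 80.5 CPM in ROS+ high-score cells and 729.8 ± 81.4 CPM in ROS- ones (SD, n = 2 each), a log2 fold change of 0.03 ± 0.21 (adjusted p = 1.00). Spp1 averaged 823 ± 156 CPM in ROS+ cells and 541 ± 78.8 CPM in ROS- cells (0.60 ± 0.22, adjusted p = 0.91). Both ROS+ values of Spp1 lay above both ROS- values, yet the difference did not pass. Chil3 averaged 489 ± 101 CPM in ROS+ cells and 266 ± 110.5 CPM in ROS- cells (0.92 ± 0.27, adjusted p = 0.91). Over 16 alternatives its log2 fold change ran from 0.55 to 1.62, and it did not pass in most of them. C1qa averaged 1454 ± 350.5 CPM in ROS+ cells and 2157 ± 671 CPM in ROS- cells (-0.55 ± 0.29, adjusted p = 0.91). Arg1 averaged 3492 ± 1749 CPM in ROS+ cells and 2951 ± 1716 CPM in ROS- cells, with a spread between replicates larger than the difference (0.26 ± 0.41, adjusted p = 1.00). All 7 oxidase genes had fold changes above 0, with a median log2 fold change of 0.094. The same held, with larger medians, for all 8 tested coagulation genes (0.41) and all 6 tested monocyte genes outside the gate (0.52). One-sidedness was thus not particular to the oxidase list. All 9 tested class II and costimulatory genes had fold changes below 0, with a median of -0.26. Over all 6458 genes the median was 9.7e-05, and no gene of these lists passed.

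The gate difference was then compared between high-score cells and the other gated cells. Of 11233 genes tested, the ROS+ minus ROS- difference was more positive in high-score cells for 13 (0.116%) and more negative for 17 (0.151%). The fit took the spread of each gene from a trend with expression level shared by all genes. DESeq2 called only S100a8, as did edgeR with replicate and gate terms in place of the library block. The calls were 0 and 3 after thinning and 2 and 6 when cells were ranked within each library. The cause of these losses was not tested. C5ar1 and Adgre1, the second named here after its values were seen, illustrate the negative ones. C5ar1 was at 249.9, 259.7, 306 and 287 CPM in high-score cells, against 203, 176, 80.2 and 119 CPM in the others, with the ROS+ libraries higher only in the others (-1.20 ± 0.19, adjusted p = 1.4e-06). Adgre1 was at 116, 126, 161 and 141 CPM in high-score cells, against 82.4, 71.3, 49.3 and 48.6 CPM in the others (-1.01, adjusted p = 0.002). For both genes the other gated cells were higher in both ROS+ libraries than in both ROS- libraries, which was not so in high-score cells. In EAE ROS+ replicate 1 the other gated cells also had the highest scores, with a median of 1.55, and the part of the score in these differences was not tested.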

How the data were processed

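CD11b+ spinal cord cells of 6 libraries were measured by droplet sequencing of transcript 3′ ends. The authors deposited raw UMI counts for each gene in each barcode, whole numbers without normalization, on mm10 with Cell Ranger 2.0.1, Seurat 3 and R 3.4.2 named in the submitters' processing notes, which do not give their roles here. The files held 9079 barcodes, against 8701 cells in the study's description, and how the study reached its number is not stated in the labels. Barcodes needed 200 or more genes and no more than 10% mitochondrial UMIs, which left 9078 cells. No doublet caller was run and no doublets were removed. An alternative left out the 5% of all cells of each library with most UMIs.

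Counts of high-score cells and of the other gated cells were summed per EAE library, with at least 20 cells a sum, and tested with edgeR 4.0.16 in R 4.3.3 (filterByExpr with a minimum count of 10, TMM scaling, quasi-likelihood test, Benjamini-Hochberg adjustment over all genes tested). High-score cells against the others took in 8 sums, blocked by library. EAE ROS+ against EAE ROS- used the 4 high-score sums, and the interaction used all 8. The 17 genes of the rule were left out of the tests. Fold changes come from these fits, while CPM values are unscaled sums. The code was tested on simulated counts. Library depth was 11909166 to 23407825 UMIs in the EAE libraries, and levels resting on few UMIs are correspondingly imprecise; intervals and limits on counts of 0 cover counting error only. DESeq2 1.42.0, other filters, scalings, score settings and left-out libraries were tried as alternatives.

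The cells, the 29 gene lists and the tests were chosen with earlier results of these data known. Of 374 list genes 371 were matched. The genes named were the 10 with the largest change in each direction (adjusted p under 0.05, average log2 CPM of at least 5, the same direction in 4 libraries), the 3 list members with the smallest adjusted p, and a set of 27 genes named whatever their values; other list members are given as part of their list. Of that set Vcan was not tested, and some named genes are not reported here.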

Additional observations from a re-analysis of the deposited data

Results flagged for a closer look

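For 30 genes the ROS+ minus ROS- difference itself differed between high-score cells and the other gated cells (edgeR quasi-likelihood interaction test, n = 2 libraries per gate). The 8 given here had the largest changes in each direction among those with an average log2 CPM of at least 5. Counts over 16 alternatives include the fits with 1 library left out, where a gate held 1 library. S100a8, a calcium-binding protein of neutrophils and monocytes, was at 196, 303, 114 and 186 CPM in high-score cells, against 713, 966, 51.3 and 135 CPM in the other gated cells, so both ROS+ libraries were high in the others (interaction -2.56 ± 0.22, SE, adjusted p = 1.1e-27). In the other gated cells, 20 cells held 70.8% of its UMIs and cells with markers of other types held 64.0%. Without the marker-bearing cells the interaction was -0.85 (adjusted p = 0.049), and over 16 alternatives, in each of which the call was kept, it ran from -3.56 to -0.85. Chil3 was at 417, 560.3, 188 and 344 CPM in high-score cells, against 751, 1201, 97.6 and 418 CPM in the others (-1.26 ± 0.20, adjusted p = 7.2e-07). C5ar1, the C5a receptor, stood at -1.20 ± 0.19 (adjusted p = 1.4e-06). Chil3 and C5ar1 each lost the call under 5 of 16 alternatives.

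Gstm1, a glutathione transferase, was at 33.9, 40.95, 33.7 and 68.9 CPM in high-score cells, against 32.4, 40.5, 12.01 and 26.02 CPM in the other gated cells (-1.37 ± 0.31, adjusted p = 0.0086). It lost its call under 11 of 16 alternatives. Ddit4, a stress-induced inhibitor of mTORC1, went the other way at 25.9, 69.9, 11.2 and 23.95 CPM in high-score cells, against 25.9, 59.4, 35.3 and 53.5 CPM in the others (1.53 ± 0.37, adjusted p = 0.017), and lost its call under 12 of 16.

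With the same sign as Ddit4, Ccnd2, cyclin D2, was at 25.1, 36.96, 36.5 and 14.97 CPM in high-score cells, against 42.8, 68.1, 182 and 174 CPM in the other gated cells, where both ROS- libraries were high (1.82 ± 0.30, adjusted p = 1.8e-06). H2-DMb2, a chain of the class II peptide loader, was at 20.4, 14.98, 35.1 and 23.95 CPM in high-score cells, against 29.8, 18.9, 185 and 62.8 CPM in the others (1.65 ± 0.32, adjusted p = 0.00036). H2-Oa, a chain of its inhibitor, was at 21.1, 9.99, 36.5 and 14.97 CPM in high-score cells, against 31.6, 14.5, 162 and 41.9 CPM in the others (1.45 ± 0.33, adjusted p = 0.0082). Cells with markers of other types held 29.2%, 23.5% and 18.003% of the UMIs of Ccnd2, H2-DMb2 and H2-Oa in the other gated cells. Such cells were 1.23% and 0.960% of the other gated cells in the EAE ROS+ libraries, against 13.3% and 10.7% in the EAE ROS- libraries, and their part was not tested beyond the fit without them, where 19 of the 30 calls remained. The 3 genes lost their calls under 3, 5 and 10 of 16 alternatives.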

How the results depend on the processing

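The limits are few libraries, 67.8% of high-score cells from 1 of them, and a score that follows depth. Of high-score cells against the others, the direction of the 932 calls held in each gene that could be tested, except 5 of 865 where no microglial UMI was allowed, 14 of 783 after thinning, 1 of 928 with the score without Apoe and 2 of 923 without cells with markers of other types; the cause was not tested. Counts of higher and lower genes (364 and 568) were 210 and 337 with DESeq2, 61 and 48 without the library block and 72 and 117 after thinning, where cells were also chosen anew; the cause was not tested. Leaving out 1 library gave 182 to 319 higher and 281 to 525 lower genes. Ccr7 turned to 0.58 without cells with markers of other types and Slc1a2, an astrocyte glutamate transporter gene at -0.98 ± 0.24, to 0.31 where no microglial UMI was allowed.

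Of ROS+ against ROS- high-score cells (0 and 0 calls), there were 8 higher and 13 lower without a count filter, 3 lower with DESeq2, and 0 to 16 higher and 0 to 5 lower with 1 library left out.

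The interaction (13 higher, 17 lower) gave 0 and 1 with DESeq2, 0 and 3 after thinning, 2 and 6 when ranked within each library, 5 and 11 without Apoe in the score and 4 and 10 with the top 10%. The top 25% gave 8 higher. Lower genes were 10 without a count filter, 10 without cells with markers of other types and 11 without the 5% of cells with most UMIs. With 1 library left out, its gate held 1 library, so calls of those fits are not given.

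The share of high-score cells, 13.4 points higher in ROS+, ranged from -3.32 to 30.1 points with 1 library left out.

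Replicate numbers are shared by the gates, with 2 pairs only. Deviations from the group means correlated at 0.253 in high-score cells and 0.312 in the others between libraries of the same number, which the labels do not tie to a shared animal or day. With the replicate block, 1 gene was higher and 2 were lower in ROS+ high-score cells, and the share difference was 13.4 points. In the interaction this block took the place of the library block, and the fit gave 0 higher and 1 lower.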
